A study of Mus musculus with 58 samples.

Results

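The array carried probes for 3539 intervals of the mouse genome whose design name is a chromosome, a start, an end and a strand in place of a gene, written as chr13:48620882-48643532_R, where F is the forward and R the reverse strand of the mm9 build. The intervals are held to be places where long intergenic noncoding RNAs (lincRNAs) may be transcribed. Whether each lies apart from annotated genes was not checked. Members were all probes with a name of this form, apart from those of 1 interval on chromosome 16 that is not reported here, and they came to 16167 of the 55681 gene probes, on 4605 interval strands. The forward strand alone was represented in 1251 intervals, the reverse strand alone in 1222 and both strands in 1066. The intervals lay on 20 chromosomes, with 75 to 269 on each, and had a median length of 7304 bases (quartiles 786.5 and 21818 bases). Because 2099 intervals overlapped another, they merged into 2223 separate loci, so that probes of neighbouring names are not independent. A strand had a median of 3 probes and at most 10, and 690 strands had 1 probe. No annotation of mm9 was used here, so genes beside or overlapping an interval are not named.

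The 3 tissues studied, lung, liver and forestomach, came from male Muta™Mouse transgenics of about 10 weeks of age, all of which carry a lacZ reporter. For 28 days the mice received BaA, benz(a)anthracene, which is a combustion-derived aromatic hydrocarbon that tissue enzymes convert to reactive metabolites, by gavage in olive oil. The daily dose per kg of body weight was 0 mg in group D0 (the vehicle), 20 mg in D1, 40 mg in D2 and 80 mg in D3, and tissues were taken 72 h after the last dose. Lung (right lobe) had 5 mice per dose group, liver (left lobe) had 5, 5, 5 and 4, and forestomach had 4, 5, 5 and 5, in all 58 arrays from 20 mice. The tissue RNA was labelled with Cy5 and hybridised with Cy3-labelled universal mouse reference RNA, a pool of RNA from cell lines, and each value below is the log2 ratio of tissue over reference. Where both channels give a signal, a value of 0 is the level of the reference. Where 1 channel or both give none, the ratio is set in part by background, and a value near 0 can mean no signal. A difference of 1 between groups is a doubling of the ratio, and values of different probes are not set against each other.

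LincRNAs are transcribed by RNA polymerase II, and many are spliced and polyadenylated like messenger RNAs, but they hold no long open reading frame. Many were found from chromatin marks of active promoters and of transcribed stretches that lie outside known genes. As a class they are known for low levels and for restriction to few tissues. Some act in the nucleus, such as Neat1, the scaffold of the nuclear bodies called paraspeckles, and several bind chromatin-modifying complexes. For most intervals on the array no function is known.

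Each array was checked against marker lists of the 3 tissues, and no sample went against its label. The lung list (Sftpc, Sftpb, Scgb1a1, Ager, Cldn18) had a mean log2 ratio of 5.61 to 6.02 in lung and of at most 1.26 elsewhere. Some libraries carried markers of other tissue. The list of squamous epithelium was at 3.65 and that of skeletal muscle at 5.75 in the lung of D0 mouse 5, and at 1.18 and 1.81 in that of D3 mouse 16, against at most 0.02 and 0.39 in the other lungs. The fat list was at 3.81 in the lung of D2 mouse 14 (0.89 to 1.44 in the others), and the T cell list at 1.87 in that of D3 mouse 17 (0.08 to 0.65 in the others). The heart muscle list ranged from 0.05 to 3.50 in lung. The glandular stomach list ranged from 0.99 to 5.74 in D0 forestomach, from 4.94 to 6.11 in D1, from 1.38 to 6.27 in D2 and from 1.43 to 5.90 in D3. In forestomach the liver list ranged from 0.34 to 3.37 and the fat list from 0.03 to 3.67. The fat list had median changes there of −1.57 at D1, −0.90 at D2 and −1.86 at D3, with 0 genes called. The B cell markers Cd79a, Cd79b and Ms4a1 rose in lung at D2, and Cd79b also at D3. In bulk tissue, fewer cells of a type and less RNA per cell cannot be told apart.

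Most member probes gave little signal. A probe was tested in a tissue where its Cy5 signal was called well above background by the scanner software on at least 4 arrays, and 5393 members (33.4%) passed in lung, 3125 (19.3%) in liver and 6300 (39.0%) in forestomach. Among all other gene probes the shares were 63.2%, 49.8% and 65.8%. On a single array, 19.8 to 32.3% of members were well above background in lung (median 30.1%), 11.3 to 25.2% in liver (median 15.0%) and 13.0 to 55.0% in forestomach (median 33.8%). The reference channel itself detected a median of 37.2%, 34.4% and 34.5% of the members on the arrays of the 3 tissues.

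Detection also moved with the slide. The third lung slide gave 19.8 to 25.7% against 29.2 to 32.3% on the first, the third liver slide 17.7 to 25.2% against 11.3 to 15.0%, and the third forestomach slide 13.0 to 16.5% against 33.8 to 55.0%. Single arrays set some of these ends. The 55.0% was that of D3 mouse 16, with 39.1% as the next highest on its slide. The 25.2% was that of the liver of D0 mouse 5, with 19.9% as the next highest. Every slide held 1 tissue and all 4 dose groups, so slide and tissue cannot be told apart between tissues, whereas doses were compared across slides.

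**Figure D1:**
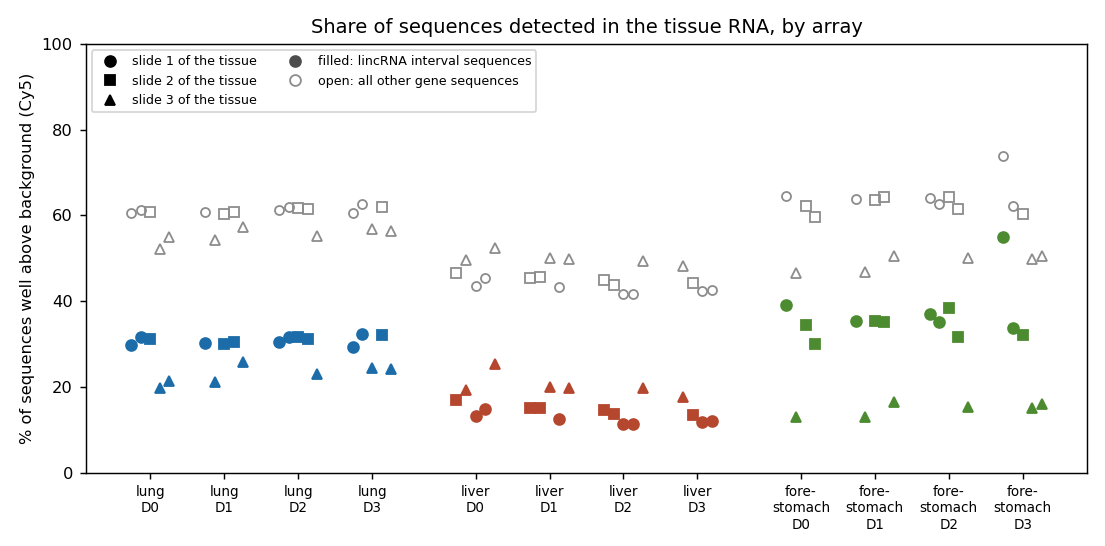
Percentage of probes well above background in the Cy5 channel (y axis, 0 to 100%) on each of the 58 arrays, by tissue, with the slide as the marker's shape; filled markers are members and open markers all other gene probes. Members lay between 11.3 and 55.0% and below the other gene probes on all arrays.

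At the level of intervals, 2117 (59.8%) had at least 1 tested probe in lung, 1519 (42.9%) in liver and 2405 (68.0%) in forestomach. All 3 tissues shared 1450 intervals (41.0%), and 1020 (28.8%) were tested in none. Lung and forestomach but not liver shared 583, whereas 5 were tested in lung and liver but not forestomach and 34 in liver and forestomach but not lung. There were 338 intervals tested in forestomach alone, 79 in lung alone and 30 in liver alone. Counted by probe, 18.1% of members and 47.5% of the other gene probes were tested in all 3 tissues, and 12.3% and 12.0% in lung and forestomach but not liver. In the same order, the shares were 8.16% and 5.55% for forestomach alone, 2.86% and 3.35% for lung alone and 0.69% and 1.11% for liver alone. They were 0.14% and 0.36% for lung and liver, 0.44% and 0.76% for liver and forestomach, and 57.3% and 29.3% for no tissue.

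The first comparison asked which intervals differ in level between tissues over all doses. Of 5576 members tested between lung and liver, 1617 (29%) were called, 789 higher in lung and 828 higher in liver, beside 47.5% of all probes tested. A call here and below required an adjusted p of at most 0.05 (limma, Benjamini-Hochberg over all probes tested) and a fold change of at least 1.5. Between lung and forestomach, 1122 of 6784 members (16.5%) were called, 603 higher in lung and 519 higher in forestomach, beside 31.4% of all probes. Between liver and forestomach, 1184 of 6434 (18.4%) were called, 606 higher in liver and 578 higher in forestomach, beside 38.3%. The split depends on the scaling, because median centring in place of LOWESS moved the median of all probes by 0.33, −0.19 and −0.51 and gave 1164 higher in lung and 238 in liver, 390 higher in lung and 829 in forestomach, and 167 higher in liver and 1630 in forestomach. With LOWESS, members called above both other tissues numbered 449 in lung (228 intervals), 448 in liver (289 intervals) and 268 in forestomach (163 intervals). These were 6.51, 6.5 and 3.89% of the 6896 members tested in any pair of tissues, beside 11.9, 12.4 and 8.02% of all probes tested.

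In lung the forward strand of chr16:11008534-11013759 (probe A_30_P01017818) stood highest over the other tissues. Its log2 ratio was 5.82 ± 0.24 in lung (SD, n = 20; range 5.32 to 6.31), 0.17 ± 0.16 in liver (n = 19; highest 0.48) and −0.10 ± 0.15 in forestomach (n = 19; highest 0.21). The lung arrays lay apart from all others. The lung level exceeded that of liver by 5.66 (SE 0.06, limma adjusted p = 2.97e-55) and that of forestomach by 5.92 (SE 0.06, adjusted p = 2.75e-55). Both of the next members belonged to the reverse strand of chr8:93337794-93348869. A_30_P01026656 was at 4.21 ± 0.35 in lung (3.62 to 4.93) and A_30_P01026518 at 3.87 ± 0.32 (3.27 to 4.51). Neither was well above background on any of the 19 liver arrays, and for the first of them lung was at least 15.3-fold higher than liver. Such bounds set the mean Cy5 signal of the brighter tissue against the lowest signal called well above background on each array of the dimmer tissue, and without dye swaps they are open to dye bias. In forestomach these probes were well above background on 5 and 1 of 19 arrays.

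In liver the reverse strand of chr13:28537223-28539860 (A_30_P01021733) was at 6.41 ± 0.82 (SD, n = 19; 5.27 to 7.86), against a highest value of 0.39 in lung and 0.51 in forestomach. It was well above background on 0 of 20 lung and 0 of 19 forestomach arrays, which makes liver at least 53.2-fold higher than lung and at least 56.1-fold higher than forestomach. Its spread within liver was wide, for example 5.99, 7.73, 6.22, 6.15 and 7.79 in the D0 mice and 7.86, 5.83, 5.86 and 6.06 in the D3 mice. Of these, 7.73, 7.79 and 7.86 (D0 mice 2 and 5 and D3 mouse 16) came from the third liver slide. The rest came from the other slides, and the part of the slide in this spread was not tested. For this probe the reference was well above background on 1 of the 19 liver arrays. The forward strand of chr6:40693617-40720167 varied less between liver arrays. A_30_P01030527 was at 6.18 ± 0.31 in liver (5.70 to 6.71) and A_30_P01018926 at 6.14 ± 0.10 (5.91 to 6.27). Both exceeded lung, by 5.83 (SE 0.08, adjusted p = 1.24e-50) and 5.65 (SE 0.07, adjusted p = 1.18e-51), and lung had 12 and 16 of 20 arrays well above background.

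In forestomach the forward strand of chr9:78107225-78118850 (A_30_P01018914) was at 5.20 ± 1.16 (SD, n = 19), against −1.76 ± 0.59 in lung and −0.33 ± 0.58 in liver. Its values fell into separate bands, from 4.00 to 4.23 on 9 arrays and from 4.93 to 7.08 on 10. The glandular stomach list was at 0.99 to 3.27 on those 9 arrays and at 4.94 to 6.27 on those 10, which included all 5 D1 arrays and all 6 of the third slide; the part of glandular tissue in this level was not tested. The forward strand of chr3:87757295-87774970 (A_30_P01020627) was at 3.93 ± 0.30 (3.32 to 4.33), against −1.52 in lung and −1.24 in liver. Here the lung of D0 mouse 5, the one rich in squamous markers, stood at 2.28 against a lung median of −1.97. The reverse strand of chr17:56687541-56694631 (A_30_P01020131) was at 6.18 ± 0.76 in forestomach (4.69 to 7.28) and at 4.61 in the lung of D0 mouse 5, against a lung median of 1.02. It was well above background on none of the 19 liver arrays, so that forestomach was at least 62.4-fold higher than liver.

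**Figure D2:**
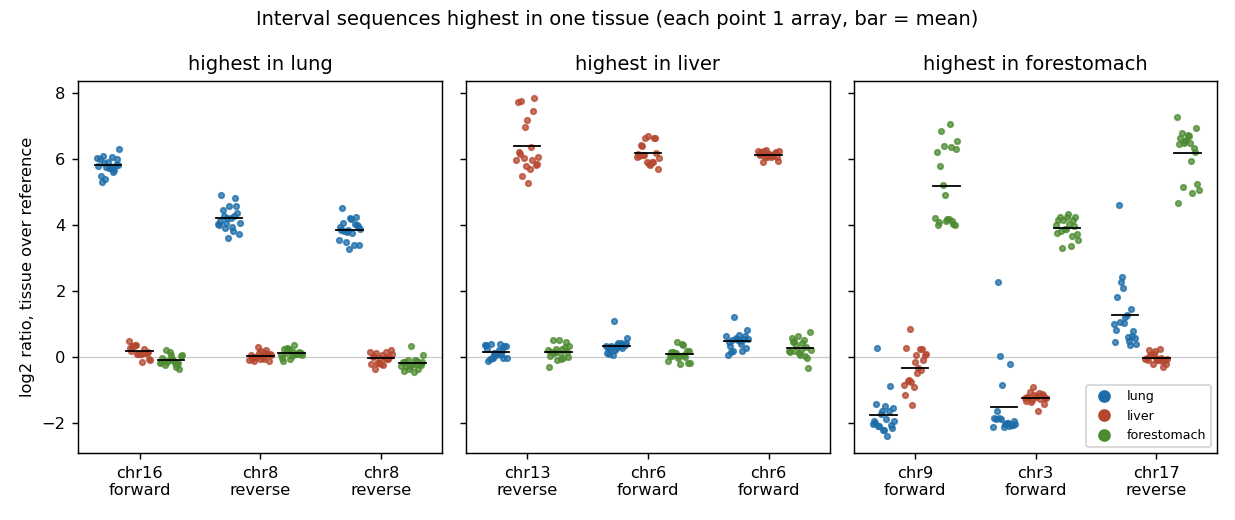
Log2 ratio of tissue over reference (y axis) on each array for the 9 members that stood highest in 1 tissue, 3 per tissue, in lung, liver and forestomach; points are arrays and bars the tissue means. The lung members lay at 3.27 and above in lung, the liver members at 5.27 and above in liver and the forestomach members at 3.32 and above in forestomach.

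Intervals spotted for both strands allowed a comparison of the strands. Of the 1066 such intervals, both strands had a tested probe in 441 in lung, 270 in liver and 589 in forestomach. A forward signal alone was found in 196, 217 and 175 intervals and a reverse signal alone in 248, 246 and 191. Neither strand was tested in 181, 333 and 111 intervals, in the same order.

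In 297 intervals each strand had a probe well above background on at least 29 of the 58 arrays. The correlation of their best probes over the 58 arrays had a median of 0.21 (quartiles −0.09 and 0.50), was below 0 in 92 pairs and above 0.5 in 75. After the mean of each tissue and dose group was taken out, the median was 0.11 (quartiles −0.05 and 0.27). These coefficients are descriptions, since the arrays share tissues, slides and the reference RNA. Probes of the same interval and strand moved together more closely: the median correlation of their within-group deviations was 0.54 in lung (2361 pairs, 20 arrays), 0.58 in liver and 0.69 in forestomach (19 arrays each). For opposite strands of an interval it was 0.15, 0.25 and 0.24, for other intervals within 100 kb 0.25, 0.38 and 0.44, and for members on different chromosomes 0.02, 0.03 and 0.06.

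The strands of chr17:56687541-56694616 had the highest correlation, 0.98 (within groups 0.83). Its forward strand had a mean log2 ratio of 1.98 in forestomach, −0.32 in lung and −0.49 in liver, and its reverse strand of 2.16, −0.01 and −0.12. This interval overlaps the forestomach-high chr17 interval above. In chr8:26343277-26352902 (r = 0.97, within groups 0.92) the forward strand had means of 1.56 in lung, 1.31 in liver and 0.33 in forestomach and the reverse strand of 2.07, 1.54 and 0.52. In chr1:95871175-95886625 (r = 0.96, within groups 0.38) liver stood above the other tissues on both strands, at 2.26 on the forward and 1.57 on the reverse strand.

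At the other end, chr17:5795893-5835243 had a correlation of −0.84. Its forward strand was lowest in lung (mean log2 ratio −1.43, against −0.33 in liver and −0.89 in forestomach), whereas its reverse strand was highest there (2.00, against 0.29 and 1.21). In chr6:83368261-83407280 (r = −0.82) the forward strand had means of 0.07 in lung, 1.09 in liver and 0.33 in forestomach and the reverse strand of 1.72, 0.56 and 1.35. In chr7:16584852-16657252 (r = −0.78) they were −0.52, 0.21 and −0.16 against 2.26, 0.38 and 0.48. Within groups these 3 correlations were 0.12, 0.04 and 0.15, so the opposition lay in the means of the tissues.

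**Figure D3:**
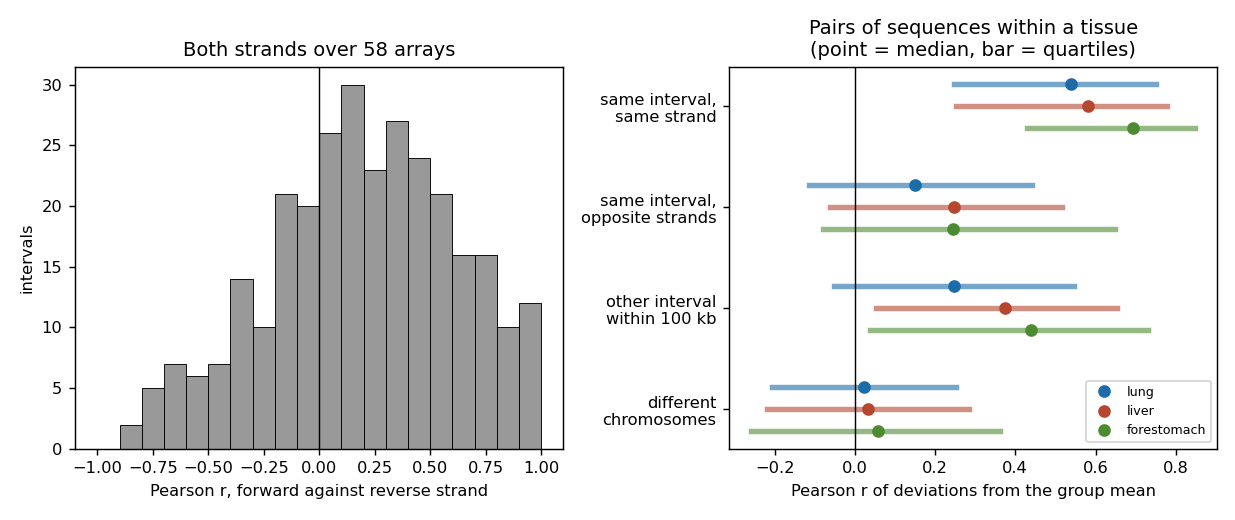
Left, the number of intervals (y axis) by the correlation of forward with reverse strand over 58 arrays (x axis), for 297 intervals; right, the median and quartiles of the correlation of within-group deviations for pairs of members of the same interval and strand, of opposite strands, of other intervals within 100 kb and of different chromosomes, by tissue. The median on the left is 0.21; on the right, pairs of the same interval and strand stand highest in each tissue, at 0.54 to 0.69.

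The next comparisons asked which intervals changed with BaA in each tissue. In lung, 1 member was called at D1, 20 at D2 (18 higher and 2 lower, in 13 intervals) and 77 at D3 (41 higher and 36 lower, in 50 intervals at 39 loci). Of all probes tested, 0.00329% were called at D1, 0.49% at D2 and 1.75% at D3, and the members' share at D3 was 1.43%. A dose slope at an adjusted p of at most 0.05, with no fold minimum, was found for 417 members (177 rising and 240 falling, 7.73% of 5393), beside 11% of all probes. Of the 417 slopes, 90 came to at least 1.5-fold over the range of 80 mg per kg. The median change at D3 was −0.03 over the members and −0.00 over all probes. Of 45 strands with a call at D3 and at least 2 tested probes, 14 had 2 or more called, 3 had all called and 28 had all their probes on 1 side of zero.

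The lung calls depend on scaling and on single mice. Under median centring no member passed limma in lung at any dose, with 421 at an unadjusted p under 0.05 at D2 and 176 at D3, and the median SE of a change was 0.17 in place of 0.10. The share of all probes at that unadjusted p was not counted under median centring. From the Cy5 channel alone the split was 9 higher and 7 lower at D2 and 19 and 40 at D3. Mouse 19 had the most extreme D3 value in the direction of the change for 51 of the 77 members, and without it 48 were called. With the lungs of mice 5, 16 and 17 left out, 65 were called at D3 (43 higher and 22 lower), and with mice 5 and 14 left out 12 were called at D2, all higher.

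In liver, 13 members in 8 intervals were called at D1, all lower, 17 in 11 intervals at D2, all lower, and 19 in 15 intervals at D3, of which 17 were lower and 2 higher. Of all probes tested, 0.241%, 0.483% and 0.395% were called. The slope was called for 14 members (13 falling), beside 0.908% of all probes. The liver of D0 mouse 5 lay closest to the dosed livers for 12 of the 13 members called at D1, 13 of the 17 at D2 and 9 of the 19 at D3, and without it 40, 39 and 40 members were called. Its array had the highest share of members well above background among the liver arrays (25.2%). It also had the lowest such share in the reference channel (29.9%), and the part of array quality in its values was not tested.

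Forestomach gave few calls. At D1 no member was called by limma and 221 (3.51%) had an unadjusted p under 0.05, beside 4.85% of all probes. At D3 limma called none and 266 (4.22%) had an unadjusted p under 0.05, beside 5.03% of all probes. At D2, 2 members were called, and 1 had a dose slope. Of all probes, 0% were called at D1, 0.00928% at D2, 0.0248% at D3 and 0.0309% for the slope.

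The reverse strand of chr13:48620882-48643532 (A_30_P01030953) rose in lung and fell in liver. Its lung log2 ratios were −1.70, −2.05, −2.23, −1.79 and −1.92 in D0 mice, −1.04, −1.03, −1.06, −1.06 and −0.55 in D2 mice and −0.91, −0.85, −0.94, −0.19 and −1.01 in D3 mice. Each D2 and D3 lung lay above each D0 lung, while the D1 lungs (−2.18 to −1.81) lay among the D0 values. The change was 0.99 at D2 (SE 0.14, limma adjusted p = 0.0014) and 1.16 at D3 (SE 0.14, adjusted p = 0.000126). In liver the D0 values were 0.09, 0.08, −0.37, 0.17 and −1.02, and the 14 dosed livers lay between −1.59 and −1.25, below every D0 liver. The change was −1.23 at D1 (SE 0.16, adjusted p = 0.00499), −1.25 at D2 (adjusted p = 0.00208) and −1.17 at D3 (adjusted p = 0.00518), and thus as large at the lowest dose as at the highest. In forestomach the D3 change was −0.21 (adjusted p = 0.999).

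A second probe of this strand, A_30_P01018771, rose by 1.20 in lung at D3 (SE 0.17, adjusted p = 0.000362) and fell by 1.37 in liver at D1 (SE 0.19, adjusted p = 0.00561). In lung at D3, 3 of the 4 tested reverse probes were called higher and the fourth was at −0.02. In liver, 3 of 3 were called lower at D1 and D2 and 2 of 3 at D3. On the forward strand of the same interval none of 7 tested probes was called in lung at D3 (−0.30 to 0.07) and none of 6 in liver (−0.35 to 0.00), although the opposite strand moved more than 2-fold.

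The reverse strand of chr5:123582742-123588117 (A_30_P01031894) had the same pattern. In lung its values were −0.78, −1.06, −1.13, −0.73 and −0.79 at D0, −0.01, −0.06, 0.05, 0.07 and 0.34 at D2 and 0.11, 0.41, 0.37, 1.54 and 0.06 at D3. All D2 and D3 lungs lay above the D0 lungs, with mouse 19 far above the other D3 mice. The change was 0.98 at D2 (SE 0.21, adjusted p = 0.019) and 1.40 at D3 (SE 0.21, adjusted p = 0.000569), and 1.14 at D3 without mouse 19, still called. In liver the D0 values were 1.36, 1.26, 1.58, 1.41 and −0.11, with mouse 5 low, and the D3 values −0.44, 0.20, −0.23 and 0.53. The change in liver was −1.35 at D1 (SE 0.24, adjusted p = 0.019), −1.54 at D2 (SE 0.24, adjusted p = 0.00609) and −1.09 at D3 (SE 0.26, adjusted p = 0.0477). The D1 call in liver was lost on leaving out 1 mouse in 5 of 10 cases (D0 mice 1 to 4 and D1 mouse 10), and the D2 call in lung without D0 mouse 3, without D2 mouse 15, or without mice 5 and 14 together.

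In lung at D3, 3 of 4 tested probes of this strand were called, and in liver 3 of 3 at D1 and D2 and 2 of 3 at D3, whereas none of the forward probes was. The overlapping entry chr5:123582742-123588202_R (A_30_P01022612), which covers nearly the same bases, rose by 1.25 in lung at D3 (SE 0.19, adjusted p = 0.000582) and fell by 1.32 in liver at D2 (SE 0.25, adjusted p = 0.0146). Of its 4 tested probes 1 was called in each case, and the median change of the 4 was 0.20 in lung.

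The forward strand of chr4:135911688-135915355 was called on 3 of 3 probes in lung at D3. For A_30_P01022284 the D0 lungs were at −0.75, −1.37, −0.96, −1.24 and −1.19 and the D3 lungs at −0.29, −0.17, −0.33, 0.93 and −0.62. Every D3 lung lay above every D0 lung, and mouse 19 was again the highest. The change was 1.00 (SE 0.20, adjusted p = 0.00453), and 0.75 without mouse 19. The D0 livers were at 0.61, 0.58, 0.64, 0.59 and −0.34 and the D3 livers at −0.26, −0.18, −0.39 and −0.32. Mouse 5 alone overlapped the dosed livers, and the change was −0.77 at D2 (SE 0.14, adjusted p = 0.012) and −0.70 at D3 (SE 0.15, adjusted p = 0.0282).

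On the reverse strand of chr6:129151512-129208737, A_30_P01028297 was at 2.79, 3.03, 2.24, 2.16 and 1.70 in D0 livers and at 1.33, 1.10, 0.94 and 0.76 in D3 livers, without overlap. The fall was 2.41-fold at D1 (adjusted p = 0.0415), 2.84-fold at D2 (adjusted p = 0.00911) and 2.55-fold at D3 (log2 change −1.35, SE 0.28, adjusted p = 0.0234), and the D3 call was lost without D0 mouse 1 or without any of D3 mice 17, 18 and 19. It was the only one of 9 tested probes of the strand called in liver at D3, 6 of which were negative. In lung the D0 values of 0.50, 0.45, 0.36, 0.30 and 0.05 lay below the D3 values of 0.73, 1.00, 0.80, 1.70 and 0.94, a rise of 0.70 (SE 0.15, adjusted p = 0.00597), and 5 of 8 tested probes of the strand were called higher.

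**Figure D4:**
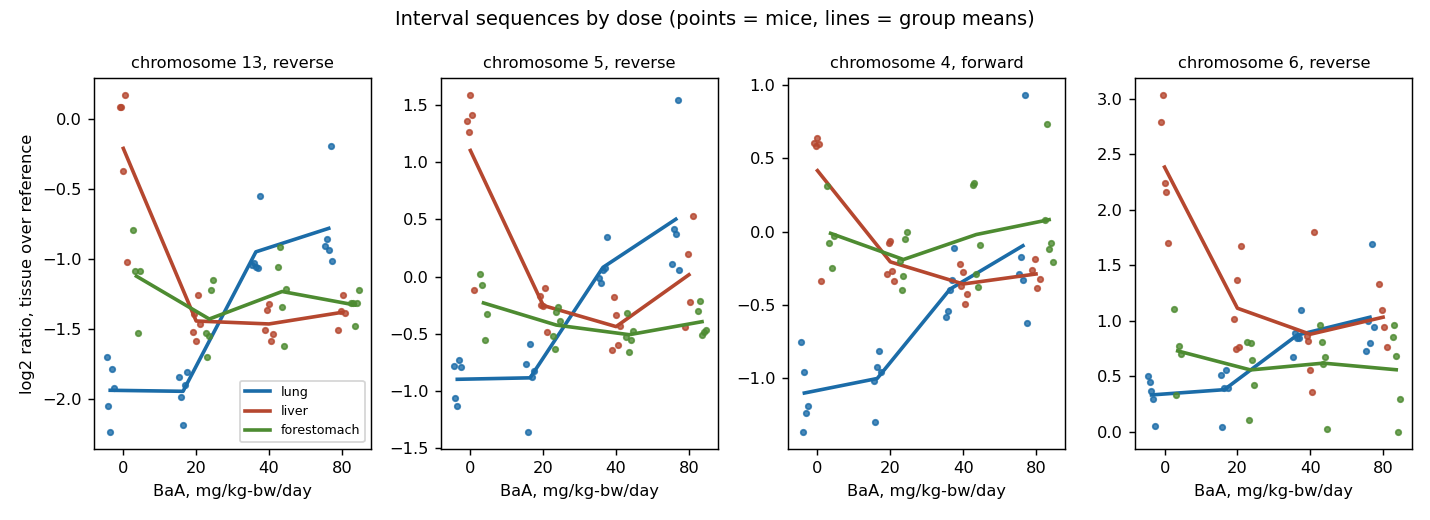
Log2 ratio of tissue over reference (y axis) by dose of BaA (0, 20, 40 or 80 mg per kg and day, drawn at equal steps) for 1 probe of each of 4 intervals on chromosomes 13, 5, 4 and 6; points are mice, lines join group means, and colours mark lung, liver and forestomach. Lung rises by 1.16, 1.40, 1.00 and 0.70 at the highest dose while liver falls by 1.17, 1.09, 0.70 and 1.35.

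The members called in both organs were few. At D2, 7 members were called in lung and in liver (35% of those called in lung and 41.2% of those in liver), all 7 with opposite signs, on the chr13 strand and the overlapping chr5 strands. At D3, 8 were called in both (10.4% and 42.1%), 6 with opposite signs and 2 lower in both, the latter in chr19:5801802-5802597_R and chr6:128393530-128394127_F. Over all probes, 23 were called in both organs at D2 (15.4% of those called in lung and 20.9% of those in liver), 22 of them with opposite signs, and 29 at D3 (5.45% and 32.2%), 20 of them with opposite signs.

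The difference of the D3 change between organs was tested in a joint fit. Between lung and liver, 68 of 2942 members (2.31%) in 40 intervals were called, 57 with a higher change in lung and 11 with a higher change in liver, beside 2.04% of all probes. The lung change exceeded the liver change by 2.48 for A_30_P01031894 on chr5 (SE 0.30, limma adjusted p = 1.26e-07) and by 2.33 for A_30_P01030953 on chr13 (SE 0.23, adjusted p = 1.47e-09). It exceeded it by 1.71 for A_30_P01022284 on chr4 (SE 0.27, adjusted p = 2.71e-05) and by 2.05 for A_30_P01028297 on chr6 (SE 0.32, adjusted p = 2.86e-05). Between lung and forestomach, 13 of 4909 members (0.265%) were called, beside 0.246%, and 11 of them had the higher change in lung. Among them were A_30_P01031894 (1.56, SE 0.30, adjusted p = 0.00436) and A_30_P01018771 (1.41, SE 0.25, adjusted p = 0.00285). From the Cy5 channel alone the split between lung and forestomach was 9 and 9. Between liver and forestomach no member of 2991 was called by limma, and 0.0227% of all probes were called. By the same test 183 members (6.12%) had an unadjusted p under 0.05, beside 7.19% of all probes.

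On chromosome 3, 14 members in 7 intervals were called in lung at D3. A run of overlapping and neighbouring reverse strands between bases 30032959 and 30133959 held 26 tested reverse probes, 13 of them called and all with a negative change, and 1 tested forward probe (−0.21). In chr3:30032959-30079659_R all 4 probes were called lower. For A_30_P01031080 the D0 lungs were at 3.40, 3.73, 3.53, 4.16 and 3.50 and the D3 lungs at 3.01, 2.65, 2.85, 2.72 and 3.06. The groups did not overlap, and the change was −0.81 (SE 0.14, adjusted p = 0.00205).

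In chr3:30099759-30133959_R, 3 of 5 probes were called lower. A_30_P01031450 was at 3.33, 3.64, 3.20, 3.20 and 2.92 in D0 and at 2.60, 2.50, 2.31, 2.17 and 2.42 in D3 lungs, a fall of 0.86 (SE 0.13, adjusted p = 0.000614). Inside it, the short interval chr3:30100736-30101280_R (A_30_P01029702) had a change of −0.71 at D2 (adjusted p = 0.0364) and of −0.73 at D3 (SE 0.17, adjusted p = 0.0115). The reference signal of this probe was well above background on only 4 of 20 lung arrays. The D2 calls of this probe and of A_30_P01031080 were each lost in 8 of 11 fits that left out mice, whereas the D3 calls of A_30_P01031080 and A_30_P01031450 held in all 11. In liver neither A_30_P01031450 nor A_30_P01029702 was well above background on any of the 19 arrays.

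Other lung falls rested on fewer probes. On the reverse strand of chr4:149383134-149451259, A_30_P01026324 was at 2.17, 2.39, 2.46, 3.27 and 2.75 in D0 lungs and at 1.71, 1.23, 1.40, 1.04 and 1.36 in D3 lungs, without overlap. The fall was 1.26 (SE 0.23, adjusted p = 0.00243), and it was the only one of 5 tested probes of the strand called. The D3 change in lung was lower than that in liver by 1.29 (adjusted p = 0.000573) and than that in forestomach by 1.23 (adjusted p = 0.00621). On the reverse strand of chr19:5834117-5835940 all 3 probes were called lower, A_30_P01019037 by 0.85 (SE 0.20, adjusted p = 0.0112). Its D0 values of −1.51, −1.19, −0.85, −0.78 and −0.10 lay above all D3 values except that of D3 mouse 19 (−1.49). Without mice 5, 16 and 17 its fall was 0.60 and the call was lost.

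A_30_P01031385, on the forward strand of chr5:74487385-74497428, fell by 1.03 (SE 0.27, adjusted p = 0.0228), from −1.15, −1.12, −1.25, −1.05 and −0.46 to −1.41, −2.56, −1.53, −2.98 and −1.70. It was 1 of 9 tested probes called, 6 of the 9 were positive, and the call was lost without D0 mouse 5, without D3 mouse 17 or without D3 mouse 19. A_30_P01029711, in chr3:37568488-37568964_F, fell by 0.61 in lung at D3 (SE 0.11, adjusted p = 0.00285), by 0.74 more than in forestomach (adjusted p = 0.0302). The call of this difference was lost in 10 of 20 fits that left out arrays.

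The one member called in lung at D1 was A_30_P01031627 in chr6:128393530-128394127_F. The D0 lungs were at −0.07, −0.05, −0.31, −0.16 and −0.20, the D1 lungs at −0.74, −0.81, −0.66, −0.65 and −1.08 and the D3 lungs at −0.58, −0.76, −1.07, −0.82 and −0.77. The change was −0.63 at D1 (SE 0.09, adjusted p = 0.0351), −0.52 at D2 (adjusted p = 0.00658, under 1.5-fold) and −0.64 at D3 (adjusted p = 0.000434), and thus no larger at the highest dose. The D1 call was lost in 6 of 11 fits that left out mice. In liver it fell from 0.48, 0.53, 0.27, 0.33 and 0.27 at D0 to −0.49, −0.36, −0.29 and −0.53 at D3, with changes of −0.74 at D2 (adjusted p = 0.00365) and −0.80 at D3 (adjusted p = 0.00406). In forestomach the changes were −0.24, −0.36 and −0.27 and were not called. In lung at D3 it was 1 of 2 tested probes called, and both were negative.

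**Figure D5:**
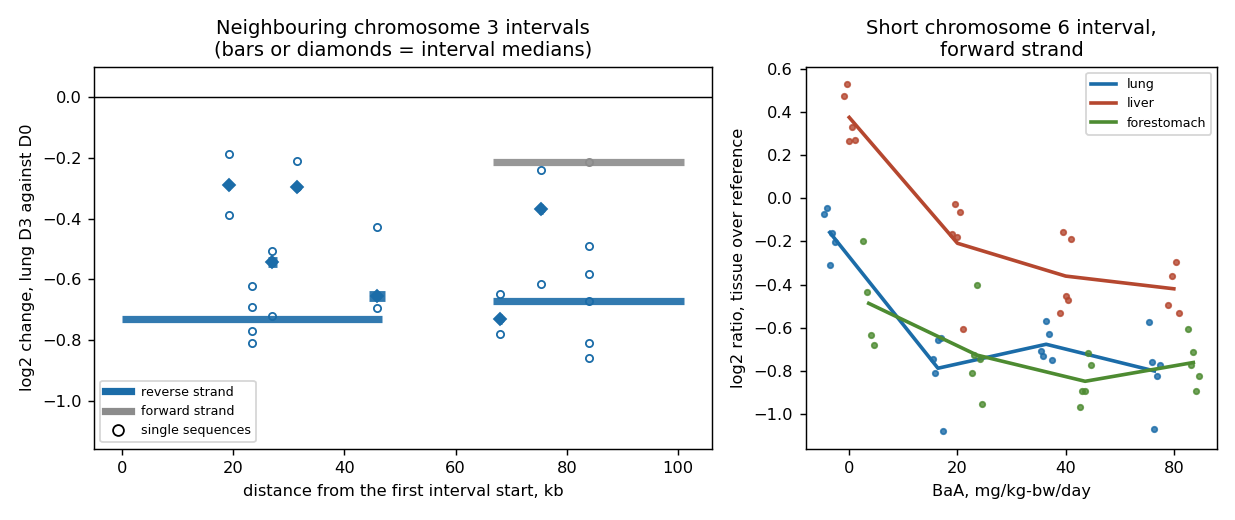
Left, the log2 change at D3 in lung (y axis) of tested probes on neighbouring strands of chromosome 3 against distance from the start of the first interval in kb (x axis), where bars or diamonds are interval medians, open circles are single probes, drawn at the middle of their interval, blue is the reverse and grey the forward strand; right, the log2 ratio of A_30_P01031627 by dose in lung, liver and forestomach, where points are mice and lines join group means. All 26 reverse probes on the left lie below 0; on the right the D1 to D3 lungs lie at −0.57 and below and the D0 lungs at −0.31 and above.

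Liver at D3 had 2 members higher. A_30_P01026009 in chr8:19682258-19700836_F rose by 0.99 (SE 0.18, adjusted p = 0.0153), from 0.83, 0.44, 0.74, 0.33 and 0.53 to 2.08, 0.79, 1.66 and 1.73. One D3 liver, that of mouse 17, lay inside the D0 range, and the other 2 probes of the strand were negative. A_30_P01024922 in chr13:34693404-34717987_R rose by 0.76 (SE 0.18, adjusted p = 0.0412), from −0.71, −0.34, −0.27, −0.35 and −0.30 to 0.27, 0.19, 0.37 and 0.66, without overlap. All 5 tested probes of this strand were positive and 1 was called, a call lost in 6 of 9 fits that left out 1 mouse.

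Among the liver falls, all 3 probes of chr19:5801802-5802597_R were called. For A_30_P01028215 the D0 livers were at 0.08, −0.40, −0.03, −0.34 and 0.08 and the D3 livers at −1.0, −1.42, −1.46 and −1.67. The D1 and D2 livers (−0.76 to −0.03) stayed near D0, and the D3 fall was 1.26 (SE 0.15, adjusted p = 0.00073). A_30_P01031754 of the same strand fell by 1.24 (SE 0.21, adjusted p = 0.0148). In lung 1 of the 3 was called at D3, and their median change was −0.58. A_30_P01033314 in chr13:70745633-70776516_R, the only tested probe of its strand, fell by 1.49 at D3 (SE 0.35, adjusted p = 0.0435). Its D0 livers were at 1.51, 1.49, 1.41, 0.90 and 1.36 and its D3 livers at −0.10, −0.12, −0.06 and −0.34, with the D2 livers spread from −0.12 to 1.97. The dose slope was −0.0192 per mg/kg-bw/day (adjusted p = 0.0276), and the D3 call was lost in 8 of 9 fits that left out 1 mouse.

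In forestomach at D2, A_30_P01017548 in chr7:144563845-144603732_R rose by 0.59 (SE 0.09, adjusted p = 0.0233), from −0.56, −0.30, −0.14 and −0.35 to 0.31, 0.28, 0.24, 0.22 and 0.21. It was 1 of 5 tested probes called, and 4 were positive. A_30_P01021428 in chr1:63264155-63345773_F had a log2 ratio of −1.30, −0.19, −0.91 and −0.98 at D0 and of −3.05, −3.23, −3.46, −3.15 and −1.91 at D2, a fall of 2.12 (SE 0.30, adjusted p = 0.0226). This fall of the ratio lay in the reference channel. The normalised log2 Cy3 signal of this probe was 8.00, 6.89, 7.91 and 8.01 on D0 and 11.44, 11.24, 11.39, 11.18 and 9.35 on D2 arrays (a difference of 3.22, limma adjusted p = 0.00189), although every array received the same reference RNA, while the mean of its Cy5 signal, normalised in the same way, was 7.00 at D0 and 8.09 at D2. The Cy3 signal of this probe was also high in the livers of D2 mice 13, 14 and 15 (8.96, 9.06 and 10.92), against at most 7.84 on the other liver arrays. Both D2 calls were lost in 8 of 9 fits that left out 1 mouse. The slope called in forestomach was that of A_30_P01024138 in chr5:74487385-74497428_R, −0.00704 per mg/kg-bw/day, and the other 5 tested probes of the strand had none.

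A list of 40 named long noncoding RNAs had 20 members on the array, of which 18 were tested in lung, 17 in liver and 18 in forestomach. Whether an interval overlaps one of these RNAs was not checked. Neat1 was the one that moved most broadly, and its 6 probes gave the same pair of directions as the chr13 and chr5 strands. They rose in lung at D3 by 1.33 to 1.74 (6 of 6 called; 3 of 6 at D2) and fell in liver by 1.78 to 2.19 at D1, 2.05 to 2.37 at D2 and 1.87 to 2.17 at D3 (6 of 6 called at each dose). The D3 change in lung exceeded that in liver by 3.30 to 3.86 for Neat1, by 2.00 for the imprinted RNA Meg3 (adjusted p = 0.00278), by 0.74 to 0.93 on 4 probes of the nuclear-speckle RNA Malat1 and by 0.97 for the snoRNA host Snhg3 (adjusted p = 0.00104). Meg3 in liver had changes of −1.41 at D2 (adjusted p = 0.0314) and −1.38 at D3 (adjusted p = 0.0459). Kcnq1ot1, an imprinted antisense RNA, fell in lung at D3 by 0.64 (adjusted p = 0.00411). In forestomach limma called none of the 18, and 7 of their 49 probes had an unadjusted p under 0.05 at D3, beside 5.03% of all probes. Of 16 genes of chromatin complexes that lincRNAs are known to bind or of the marks that define such intervals (among them Ezh2, Suz12, Eed, Kdm1a and Rest), 15 were tested and limma called none at any dose in any tissue, with median changes between −0.02 and 0.09. In lung at D3, 8 of their 22 probes had an unadjusted p under 0.05, beside 23.5% of all probes.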

How the data were processed

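RNA of each tissue (Cy5) was hybridised with reference RNA (Cy3) to 2-colour 8x60K oligonucleotide arrays, without dye swaps. Scanner files held the intensity of each spot, as deposited from Feature Extraction 10.7.3.1. The authors normalised median signals by LOWESS and deposited log2 ratios of Cy5 over Cy3, which are the values used here. On each array they correlated with a loess of the deposited median intensity values computed here at 0.995 to 0.998.

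Members were taken by the form of their name, and the members and lists were chosen with earlier results of these data known. Groups came from the labels. Probes entered the test of a tissue where the Cy5 signal was well above background on at least 4 arrays of it (for levels, of either tissue; for differences of change, of both). Dose groups were compared with D0 within a tissue, and tissues in a joint fit of all 12 groups, by limma 3.58.1 in R 4.3.3 with Benjamini-Hochberg adjustment over all probes tested; limma stood in for the study's MAANOVA, which was not installed. A call required an adjusted p of at most 0.05 and a fold change of at least 1.5, or the adjusted p alone for slopes. The p-values measure the spread between mice within a group. The fit was tested on simulated data: a log2 change of 1 was recovered in 79 to 100% of cases and one of 2 in 95 to 100%, with 0 to 8 false calls per contrast. The simulated noise was independent between probes and arrays, without slide effects or mice standing apart. These shares therefore do not cover the spread that slides and single mice add.

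Named were up to 5 called members each way at D3 in each tissue, up to 2 each way at D2 and D1 and in differences between tissues, the 3 highest per tissue, and the 3 strand pairs with the highest and the lowest correlation; where 5 or fewer were called, all. Members beyond this rule were named after their values were seen.

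The same number marks the same mouse in each tissue, so tissues are paired. Same-mouse deviations from the group means had a median correlation of 0.13 between lung and liver, 0.10 between lung and forestomach and 0.05 between liver and forestomach (over 0.1 for 11 of 19, 9 of 19 and 3 of 18 mice). The number of arrays limits the precision. Alternatives were other normalisations, the Cy5 channel alone, a stricter filter, slide and mouse as blocks, and leaving out each array in turn. No genome of the build was used, and neither interval sequences nor neighbouring genes were analysed here.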

Additional observations from a re-analysis of the deposited data

Results flagged for a closer look

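Named members were examined in each group of 4 or 5 mice for a single value far from the others. Most were chosen for large changes in these same values, and some overlap. The groups are therefore not independent, and no number expected by chance is given. A value of this kind was found in 10 of 51 groups. The lung of D3 mouse 19 accounted for 4 of them. It stood at 1.54 for chr5:123582742-123588117_R (the other D3 lungs at 0.06 to 0.41), at 1.29 for the overlapping chr5:123582742-123588202_R (−0.07 to 0.11), at −0.19 for chr13:48620882-48643532_R (−1.01 to −0.85) and at 0.93 for chr4:135911688-135915355_F (−0.62 to −0.17). The calls of these members held without this mouse. The lung of D2 mouse 15 stood at −0.55 for chr13:48620882-48643532_R (−1.06 to −1.03) and that of D0 mouse 5 at −0.46 for chr5:74487385-74497428_F (−1.25 to −1.05).

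In liver, D0 mouse 5 stood at −0.11 for chr5:123582742-123588117_R (the other D0 livers at 1.26 to 1.58), D0 mouse 1 at −0.71 for chr13:34693404-34717987_R (−0.35 to −0.27) and D0 mouse 4 at 0.90 for chr13:70745633-70776516_R (1.36 to 1.51). In forestomach, D2 mouse 15 stood at −1.91 for chr1:63264155-63345773_F (−3.46 to −3.05), the probe whose reference channel differed between arrays. This was the only D2 array on the third forestomach slide. At D0 the Cy3 signal of the probe was also lower on that slide, at 6.89 for mouse 2 against 7.91 to 8.01.

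The D3 change differed between tissues, by the test of that difference, for 8 results named by rule. Lung minus liver gave 2.48 for chr5:123582742-123588117_R, 2.33 for chr13:48620882-48643532_R, −1.29 for chr4:149383134-149451259_R and −1.22 for chr8:19682258-19700836_F. Lung minus forestomach gave 1.56 for chr5:123582742-123588117_R, 1.41 for chr13:48620882-48643532_R, −1.23 for chr4:149383134-149451259_R and −0.74 for chr3:37568488-37568964_F.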

How the results depend on the processing

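Values here are numbers of members called. Median centring gave 0 in lung at D1, D2, D3 and for the slope, 4, 29, 6 and 1 in liver, 1 at D2 and 0 for the slope in forestomach, 3 for lung minus liver, 0 for lung minus forestomach and 1797 for the level of liver against forestomach. It moved the median of all probes by 0.18, 0.37 and 0.15 in lung at D1, D2 and D3 and by −0.17 in liver and 0.13 in forestomach at D2. The Cy5 channel alone gave 0 in lung at D1, 7 in liver at D1, 7 at D3 and 9 for the slope in forestomach and 4 for liver minus forestomach, and turned the D2 change of chr1:63264155-63345773_F in forestomach to 0.83. A loess of the median signals gave 0 in lung at D1 and 0 for the forestomach slope, and a normexp background correction 0 in lung at D1. Requiring a signal well above background on every array gave 6, 8 and 11 in liver, 1 at D2 and 0 for the slope in forestomach and 33 for lung minus liver. Slide as a block gave 27 at D2, 32 at D3 and 39 for the slope in liver, 1 at D3 in forestomach, 28 for lung minus forestomach and 10 for liver minus forestomach. Chosen after seeing the data, leaving out lung mice 5 and 14 gave 12 at D2, and mice 5, 14, 16 and 17 gave 187 slopes (99 rising and 88 falling). The cause of these moves was not tested. Of the named members' results under all alternatives, 739 kept direction and call, 123 kept direction and lost the call, and the 1 above reversed.

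With the mouse as a replicate block, pairing the tissues, 1618, 1125 and 1185 members were called for levels and 71, 13 and 0 for differences of the D3 change, so that the block changed no count by over 1.5 times.

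The fits below left out 1 array at a time, so in differences between tissues the other tissues of the same mouse stayed in. Lung gave 0 to 1 at D1, 11 to 22 at D2 (11 without D2 mouse 15), 48 to 101 at D3 (48 without mouse 19, 101 without mouse 20) and 276 to 470 for the slope (276 without D3 mouse 17). Liver gave 3 to 40 at D1 (3 without D0 mouse 4), 10 to 39 at D2 (10 without D0 mouse 1), 3 to 40 at D3 (3 without D3 mouse 19) and 0 to 25 for the slope, each dose highest without D0 mouse 5. Forestomach gave 0 at D1, 0 to 1 at D2 and at D3 and 0 to 2 for the slope. Lung minus liver gave 54 to 79, lung minus forestomach 5 to 17 and liver minus forestomach 0 to 14 (14 without liver D0 mouse 5). Of 36 named results, 15 lost their call in at least 1 such fit or with the lung mice above left out.

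Reference signal also limits the ratios, since of the tested members 88.1% in lung, 92.4% in liver and 77.5% in forestomach had a Cy3 signal well above background on most arrays.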

Other observations

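The annotated genes whose within-group deviations followed the leading intervals most closely over the 58 arrays were taken from 10809 candidate probes well above background on all arrays, as a description with no test, since all share arrays and reference RNA. For chr5:123582742-123588117_R they were Ankrd16 (r = 0.87), Ccnl2 (0.87), which encodes cyclin L2, a nuclear-speckle protein, and Fam193b (0.85). For chr13:48620882-48643532_R they were Fam193b (0.83), Ankrd16 (0.80) and Ccnl2 (0.75). For chr4:135911688-135915355_F they were Pank4 (0.76), Ankrd16 (0.75) and Clk2 (0.73), a kinase of splicing factors. For the overlapping chr5:123582742-123588202_R, Ccnl2 (0.89) and Pnisr (0.86) stood highest. In contrast, Gstt2, a glutathione transferase, was the closest to chr6:128393530-128394127_F at 0.57. The lists of chr5:123582742-123588117_R and chr13:48620882-48643532_R thus shared Ankrd16, Fam193b and Ccnl2, and that of chr4:135911688-135915355_F shared Ankrd16 with them. For the chr5 strand the liver of D0 mouse 5 and the lung of D3 mouse 19 stood far from their groups. The weight of single arrays in these correlations was not tested.

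Further strands had several probes called in lung at D3, chosen after their values were seen. On chr16:4867322-4874772_F, 5 of 7 tested probes were called higher, with a median change of 0.68. On chr14:105497388-105511063_R, 2 of 5 were called higher, all 5 were positive, and the median change was 0.58.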
